A study of Mus musculus with 4 samples.

Results

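Retinoid metabolism and binding genes were followed in sorted hair follicle stem cells with and without the transcription factor gene Tbx1. The members were 9 genes chosen by name, with earlier results of these data known: Adh7, Adh1, Crabp1, Crabp2, Aldh1a1, Aldh1a3, Rarg, Dhrs3 and Stra6. Every probe set annotated to one of them alone was used, which gave 13 probe sets out of 20380 with 1 gene symbol and 22690 in all. A probe set is a group of short probes on an Affymetrix array that together measure 1 transcript or a few related ones. RNA came from 4 samples in 2 groups, Tbx1 conditional knockout (cKO, 2 arrays) and wild type (WT, 2 arrays). Each set holds 1 cKO and 1 WT array, and both arrays of set 2 are described as activated and both of set 1 as quiescent. All samples came from back skin of female mice on a CD1/C57BL/6 background at about postnatal day 60, and the cells were sorted on YFP, integrin α6 and CD34. The treatment text gives wax depilation 48 h before harvest for every sample, which the labels do not reconcile with the word quiescent, so the sets are named by number. The Cre driver of the conditional allele and the number of animals per sample are not stated in the labels.

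Vitamin A circulates as retinol, and cells oxidise it to retinal and then to retinoic acid, the form that acts on genes. Alcohol and retinol dehydrogenases carry out the reversible first step and retinal dehydrogenases the irreversible next one. Cellular binding proteins carry the acid to nuclear receptors or to the enzymes that degrade it. In skin, retinoic acid is known to alter keratinocyte differentiation and the hair cycle, and both its lack and its excess disturb hair growth.

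The sort and the genotype were checked before the members. The 10 bulge stem cell markers listed were Cd34, Itga6, Krt15, Lgr5, Sox9, Lhx2, Tcf7l1, Nfatc1, Krt5 and Krt14. All 10 lay on all 4 arrays above a log2 intensity of 5.4. That value is percentile 40 of all probe set means and is called the dim limit here. By the mean of their brightest probe set, 8033 of 12393 genes lay at or above it. Cd34 and Itga6 also encode proteins used in the sort, so this checks the sort only weakly. Log2 intensities of Tbx1 were 9.54 and 8.88 on the cKO arrays, against 10.53 and 10.37 on the WT arrays, a difference of -1.24 (SE 0.25, limma adjusted p = 0.31). Whether its probe set lies in the deleted part is not given, so this checks the labels only weakly. Markers of endothelium differed between the genotypes: the 8 measured had summed linear intensities of 216.4 and 216.2 in cKO and 2549 and 2386 in WT, and Pecam1 and Kdr among them were dim on all arrays. Their part in the members' results was not tested. Of 6 immune markers measured, 5 were below the dim limit on all arrays, as were both measured fat cell markers. So were 8 of 11 fibroblast and dermal papilla markers. Summed linear intensities of the 11 were 501.7 and 423.4 in cKO and 839.7 and 842.2 in WT. Among those above the limit, Vim differed most, by -1.69 within set 1 and -2.14 within set 2. Vim was also the brightest of the 11 on both WT arrays, at log2 8.93 and 8.80. The gap between the sums therefore rests mostly on Vim and does not describe the 11 as a set. Col1a2 differed by -0.059 and -0.23, and Dcn by -0.063 and -0.78. The WT array of set 2 stood apart in Malat1, a nuclear noncoding RNA, at 12.35 against 9.80 to 10.56 on the others. The cKO array of set 1 had a 3′ minus 5′ difference of 2.95 in the Dap labelling control, against 1.74 to 1.82 on the others. This rests on Dap alone, with 1 probe set at each end, and values of other labelling controls are not given. Values without 1 of these arrays are given beside some of the results. With 2 arrays a group, an exact permutation test of 1 value cannot give a p below 0.333. The labels do not say whether replicate arrays stand for different mice, so p-values cover the spread among these 4 arrays alone, and that spread may be technical.

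Adh7 showed the clearest genotype difference of the members, and the neighbouring Adh1 a much smaller one. Their promoters are shown for that reason, from 250 bases before to 50 after the RefSeq start site in GRCm38.p6. Adh7 lies at chr3:138217523-138217822 on the plus strand and Adh1 at chr3:138277335-138277634 on the plus strand. Capitals mark matches to a retinoic acid receptor half-site.
Adh7: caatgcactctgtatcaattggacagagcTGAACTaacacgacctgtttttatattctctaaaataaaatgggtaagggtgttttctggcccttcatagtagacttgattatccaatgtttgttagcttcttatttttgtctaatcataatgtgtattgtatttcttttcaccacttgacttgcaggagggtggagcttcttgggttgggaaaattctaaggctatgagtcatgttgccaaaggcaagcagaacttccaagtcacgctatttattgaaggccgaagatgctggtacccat
Adh1: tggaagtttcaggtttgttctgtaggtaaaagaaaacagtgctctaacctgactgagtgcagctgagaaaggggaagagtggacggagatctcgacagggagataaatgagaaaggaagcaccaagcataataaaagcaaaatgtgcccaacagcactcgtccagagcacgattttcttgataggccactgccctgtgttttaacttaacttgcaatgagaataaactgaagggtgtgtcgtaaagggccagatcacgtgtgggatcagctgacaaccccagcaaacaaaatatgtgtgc
The letters searched on both strands were the receptor half-sites AGGTCA and AGTTCA, direct repeats of the first with 5 or 2 bases between (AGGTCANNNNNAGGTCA and AGGTCANNAGGTCA), and the T-box half-site AGGTGTGA with its shorter form GGTGTGA, which overlaps it. The Adh7 window held 1 match, AGTTCA on the minus strand at -221 to -216 from the start site, and the Adh1 window held none. Among 32851 promoters of this length in the table, 14.0% held AGTTCA, 16.3% AGGTCA, 1.28% AGGTGTGA, 3.98% GGTGTGA and 0.00913% each repeat. Of the 9 members, 7 had an entry, with 14 start sites in all, of which 4 held any match. The T-box half-site stood before 1 start site of Aldh1a1, at -192 to -185. A match is a run of letters and not a binding site, and its absence says only that the letters are not in this window.

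Adh7, a class IV alcohol dehydrogenase that oxidises retinol to retinal and is typical of epithelia, was brighter on both cKO arrays. On the linear scale the brighter of its 2 probe sets had 1412 and 1253 on cKO arrays and 500.1 and 390.6 on WT arrays. As log2 values these are 10.46 and 10.29 in cKO and 8.97 and 8.61 in WT, with means of 10.38 ± 0.12 and 8.79 ± 0.25 (SD, n = 2). The groups did not overlap, and the lowest cKO array lay 1.33 above the highest WT array. The difference was 1.5 within set 1 and 1.68 within set 2, that is 2.82-fold and 3.21-fold. In RNA of sorted cells, a smaller share of cells of a type and less RNA per cell cannot be told apart.

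The dimmer Adh7 probe set had 9.17 and 8.66 on cKO arrays and 7.04 and 6.89 on WT arrays. Its groups did not overlap either, with a gap of 1.61. The difference was 2.13 within set 1 and 1.77 within set 2. Both probe sets measure 1 gene in the same RNA and are not independent of each other.

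Fitted over both sets, Adh7 differed by 1.59 (SE 0.18, 95% interval 1.13 to 2.05) at the brighter probe set and by 1.95 (SE 0.21, 95% interval 1.40 to 2.5) at the dimmer one. The cKO level was 3.01 and 3.87 times that of WT. Neither passed limma's test over 20380 probe sets (adjusted p = 0.18 for both). They ranked 37 and 34 of all probe sets by p, and 64 and 38 by size of the difference. limma called 7 probe sets in all, or 0.0343%, and 0 of the 13 member probe sets. Among the 7 were those of the endothelial markers Fabp4, Selp and Plvap, all lower in cKO (limma adjusted p = 0.0233, 0.0253 and 0.04). At an unadjusted p under 0.05 limma gave 5 member probe sets, all higher in cKO. They were both of Adh7, those of Adh1 and Crabp2, and 1 of Aldh1a3. The shares over all probe sets were 10.9% in either direction and 5.9% upward.

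The set number pairs the arrays, and with the set as a block limma called 0.00981% of all probe sets and neither of Adh7 (adjusted p = 0.222 for both). A call did appear once dim probe sets were left out, each gene was represented by its brightest probe set and the set was kept as a block. In that fit, added after the data were seen, Adh7 passed (difference 1.59, SE 0.17, limma adjusted p = 0.0207), 1 of 83 genes called among 8033 (1.03%). Of the 5 member genes tested there, Adh7 was the only one to pass. Without the block the same fit gave an adjusted p of 0.0793. Between the cKO array of set 2 and the WT array of set 1, which leaves out both arrays that stood apart, Adh7 differed by 1.33 and 1.61, although these arrays also differ in set.

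**Figure D1:**
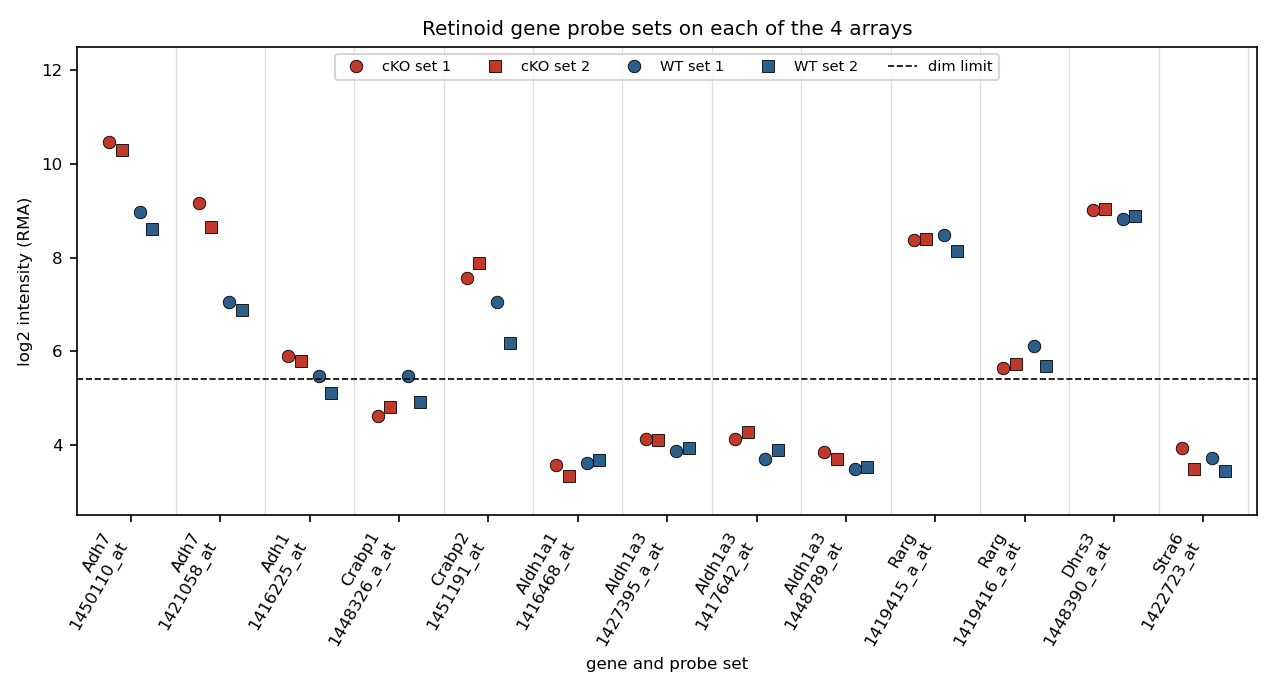
Log2 intensity of each of the 13 retinoid probe sets on the 4 arrays, with cKO in red and WT in blue, circles for set 1 and squares for set 2, and the dim limit of 5.4 dashed. Both Adh7 probe sets separate cKO from WT by more than 1 on the log2 scale, and Aldh1a1, Aldh1a3 and Stra6 lie below the limit on every array.

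Adh1, the class I alcohol dehydrogenase, which oxidises retinol as well as ethanol, lies next to Adh7 in the RefSeq gene order on chromosome 3. The values were 5.89 and 5.78 on cKO arrays and 5.47 and 5.10 on WT arrays. The cKO arrays lay above the WT arrays by 0.31, with all values close to the dim limit and the WT array of set 2 below it. The difference was 0.55 (SE 0.17, 95% interval 0.10 to 1.00), 0.42 within set 1 and 0.68 within set 2, and did not pass (limma adjusted p = 0.406). It was 0.37 without the WT array of set 2.

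Adh5 and Adh4, of the same alcohol dehydrogenase cluster, had probe sets too. Adh5, the class III enzyme, which also clears formaldehyde, had 11.50 and 11.42 on cKO arrays and 11.54 and 11.60 on WT arrays. Its differences were -0.045 within set 1 and -0.18 within set 2, so its cKO values were slightly below those of WT. Adh4 was below the dim limit on every array, at 3.18 and 3.40 in cKO and 3.33 and 3.16 in WT. Beyond Adh7 in the other direction, the transfer RNA methyltransferase gene Trmt10a had 7.55 and 7.38 on cKO arrays and 7.78 and 8.05 on WT arrays. None of these 3 genes had both cKO arrays above both WT arrays, while Adh1 had, as did 25.7% of all named probe sets. Adh5 and Trmt10a had both cKO arrays below both WT arrays, as did 17.3% of all named probe sets.

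Dhrs3, a reductase that turns retinal back into retinol and so opposes the dehydrogenases, varied least of the members above the limit. It had 9.02 and 9.03 on cKO arrays and 8.83 and 8.88 on WT arrays. The groups did not overlap, but the gap was 0.13. Its difference of 0.17 (SE 0.12, 95% interval -0.15 to 0.48) did not pass (limma adjusted p = 0.648).

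The retinal dehydrogenases, which make retinoic acid itself, gave little signal. Aldh1a1 had 3.56 and 3.33 on cKO arrays and 3.61 and 3.67 on WT arrays, with a difference of -0.20 (SE 0.14, limma adjusted p = 0.643), which was -0.082 without the cKO array of set 2 and -0.32 without that of set 1. Aldh1a3 had 3 probe sets, all below the dim limit on every array, between 3.69 and 4.27 in cKO and 3.48 and 3.92 in WT. For each of the 3, the cKO arrays lay above the WT arrays, by differences of 0.22, 0.40 and 0.26 (limma adjusted p = 0.577, 0.44 and 0.541). The deposited values carry no detection call, so signal and background were not told apart here. With 16 added to the linear intensity, the 3 differences shrank to between 0.11 and 0.20.

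Stra6, the membrane receptor that takes up retinol from its plasma carrier, was also below the dim limit everywhere. It had 3.92 and 3.49 on cKO arrays and 3.72 and 3.43 on WT arrays. The groups overlapped, and the difference of 0.13 (SE 0.21, 95% interval -0.40 to 0.66) did not pass (limma adjusted p = 0.844). It was -0.086 without the cKO array of set 1 and -0.011 without the WT array of set 2.

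Of the retinoic acid binding proteins, Crabp2 was brighter in cKO and Crabp1 was dim. Crabp2, which carries retinoic acid to its nuclear receptors and is the main such carrier of epidermis, had 7.56 and 7.88 on cKO arrays and 7.06 and 6.17 on WT arrays. The groups did not overlap, with a gap of 0.50, and the WT array of set 2 was the lowest. Means were 7.72 ± 0.23 in cKO and 6.62 ± 0.63 in WT (SD, n = 2).

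The Crabp2 difference was 1.10 (SE 0.33, 95% interval 0.25 to 1.95), or 2.15-fold, and did not pass limma's test (adjusted p = 0.391, and 0.327 with the set as a block). It was 0.50 within set 1 and 1.71 within set 2. Without the WT array of set 2 it was 0.66, and without the WT array of set 1 it was 1.55. Between the cKO array of set 2 and the WT array of set 1 it was 0.82. The size of the difference thus depends on the WT array of set 2, while its sign was positive in each of these comparisons.

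Markers of the suprabasal epidermis, where cells have left the basal layer to cornify, were low on the same array. The 5 of 6 markers measured had summed linear intensities of 22191 and 24929 in cKO and 20283 and 6920 in WT. Krt1 differed by 0.26 within set 1 and 2.25 within set 2, Krt10 by 0.15 and 1.70, Krtdap by -0.017 and 1.78, and Lor by 0.31 and 1.69. Their part in the Crabp2 result was not tested.

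Both Adh7 probe sets were also lowest on the WT array of set 2. The Adh7 difference at the brighter probe set was 1.41 without that array and 1.77 without the WT array of set 1, and at the dimmer one 1.87 and 2.03. Markers of the upper follicle and sebaceous gland were mixed. The 10 of 11 measured had summed linear intensities of 10396 and 10543 in cKO and 10945 and 7538 in WT, and 2 of them, Mc5r and Pparg, were below the dim limit on every array. Among the 8 above it, 5 were higher in cKO within both sets, against 35.8% of all genes above the limit. The 1 lower within both sets, against 27.9%, was Fasn, at -0.70 and -0.10, while Lrig1 had -0.14 and 0.14. Gata6, a transcription factor of the upper follicle, differed by 1.06 and 0.97, Elovl3 by 1.07 and 0.47, and Krt79 by -0.17 and 1.06. Their part in the Adh7 result was not tested.

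**Figure D2:**
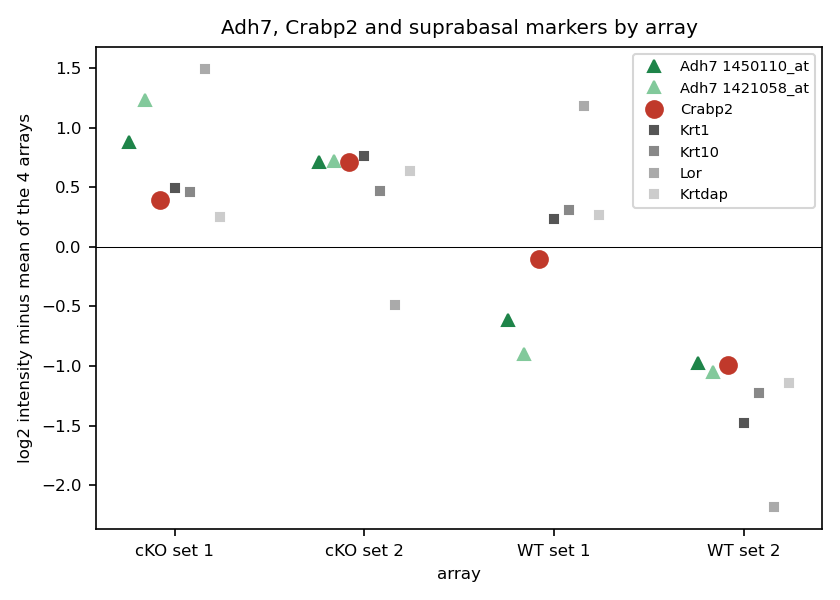
Log2 intensity minus its mean over the 4 arrays, for both Adh7 probe sets (triangles), Crabp2 (circle) and 4 suprabasal markers (squares), with arrays on the horizontal axis. Crabp2 and the markers are all lowest on the WT array of set 2, and both Adh7 probe sets are also lowest there, with the WT array of set 1 next.

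Crabp1, a related binding protein that is known for leading retinoic acid toward degradation, had 4.61 and 4.80 on cKO arrays and 5.46 and 4.92 on WT arrays. Only the WT array of set 1 reached the dim limit. The difference was -0.48 (SE 0.22, 95% interval -1.06 to 0.094), -0.85 within set 1 and -0.12 within set 2, and did not pass (limma adjusted p = 0.513). It was -0.21 without the WT array of set 1 and -0.76 without the WT array of set 2, so its size rests on single arrays.

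Rarg, the retinoic acid receptor γ gene and the main such receptor of epidermis, did not separate the genotypes. The brighter of its 2 probe sets had 8.38 and 8.39 in cKO and 8.48 and 8.14 in WT. The dimmer one had 5.64 and 5.72 in cKO and 6.12 and 5.69 in WT. For each, the cKO values lay within the range of the WT values or just below its lower end. The differences of 0.074 (95% interval -0.35 to 0.50) and -0.22 (95% interval -0.71 to 0.26) did not pass (limma adjusted p = 0.894 and 0.685). At the brighter one the difference was -0.096 without the WT array of set 2. At the dimmer one the difference was -0.0068 without the WT array of set 1 and -0.44 without the WT array of set 2.

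**Figure D3:**
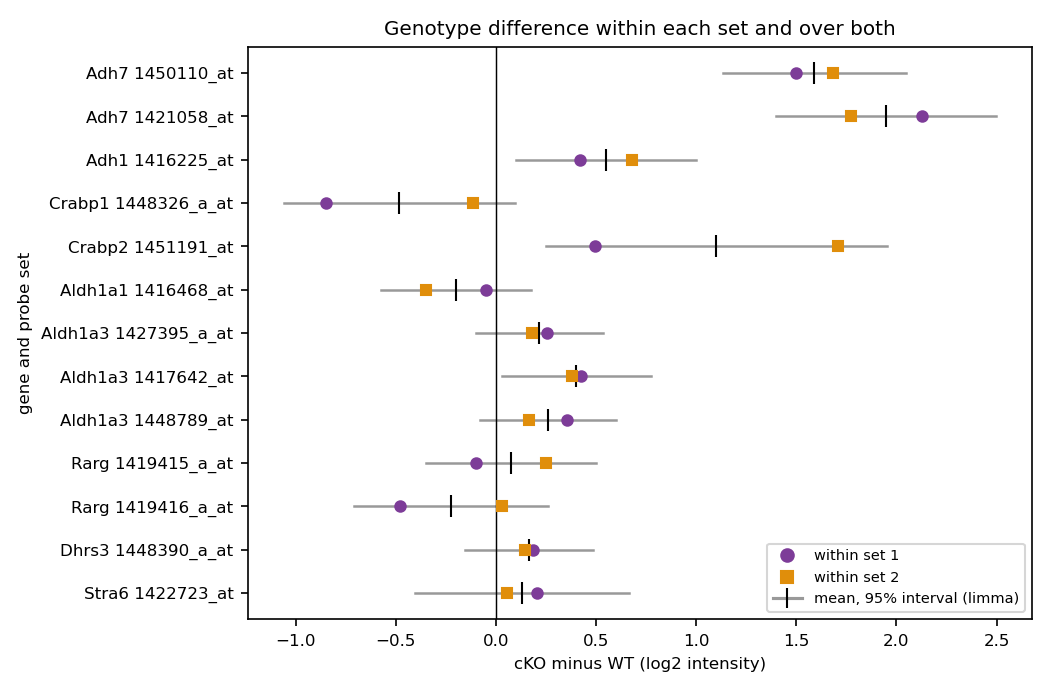
Difference cKO minus WT in log2 intensity for each probe set, within set 1 (circles) and set 2 (squares), with the mean (tick) and limma's 95% interval (line). The sets lie farthest apart for Crabp2, at 0.50 and 1.71, followed by Crabp1 at -0.85 and -0.12.

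Read as a group, 8 of the 13 probe sets had both cKO arrays above both WT arrays, against 25.7% of all named probe sets, and 2 had them below, against 17.3%. The 8 stand for 5 genes, and 3 of them are the dim probe sets of Aldh1a3. The members were chosen with earlier results of these data known, so shares and medians here are a description and not a test. The median difference was 0.22 over the 13 probe sets and 0.030 over all named probe sets. Without the WT array of set 2, 8 of the 13 lay above WT on both cKO arrays, against 38.1% of all named probe sets, and 4 lay below, against 32.0%. Changes of 1.5-fold or more that shared a sign in set 1 and set 2 were seen at the 2 Adh7 probe sets (1 gene), against 1.67% of all named probe sets upward. No member reached it downward, against 1.62%.

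**Figure D4:**
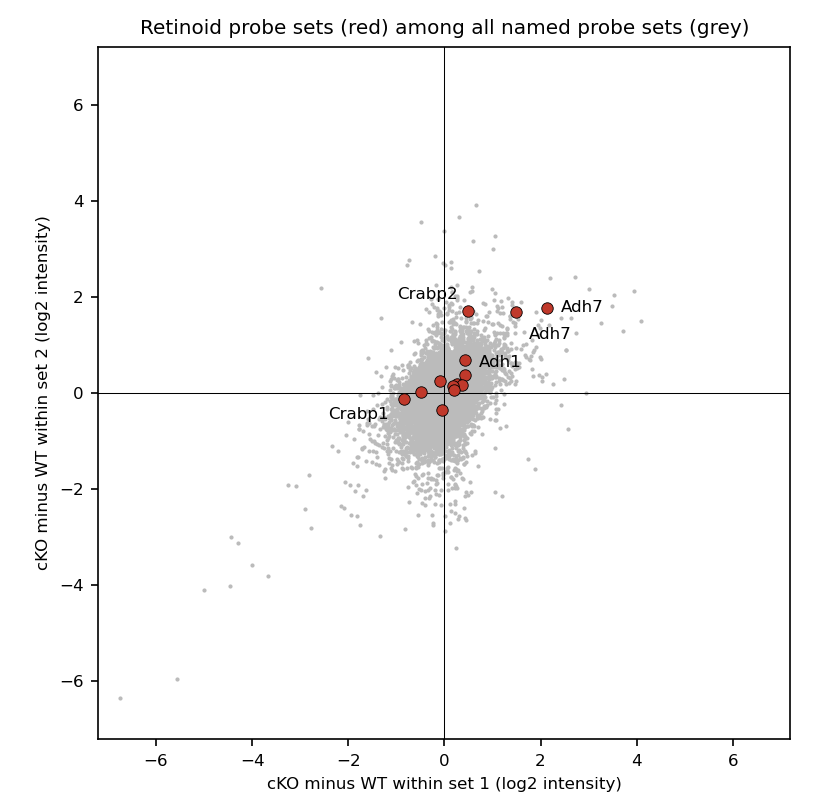
Difference cKO minus WT in log2 intensity within set 1 (horizontal) and within set 2 (vertical) for all 20380 named probe sets (grey) and the 13 retinoid probe sets (red). The Adh7 probe sets lie toward the upper right, at 1.5 and 1.68 and at 2.13 and 1.77, while most of the others lie inside the main cloud.

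Set 2 and set 1 were compared next, since the labels describe them as activated and quiescent. limma called 0 of 20380 probe sets, with 3.62% at an unadjusted p under 0.05, and 0 of the 13 members at either threshold. Adh7 averaged 9.45 in set 2 and 9.71 in set 1 at its brighter probe set, a difference of -0.26 (SE 0.74). The 95% interval was -2.21 to 1.69 in this fit, which counts the genotype difference as spread within each set. With the genotype as a block the SE was 0.14 (limma adjusted p = 0.706). Stra6 had the smallest unadjusted p at a difference of -0.36 (SE 0.15, limma adjusted p = 1), on signal below the dim limit. Crabp2 was higher in set 2 than in set 1 by 0.32 in cKO, and in WT the difference was -0.89.

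The rest of the retinoid pathway was described from a list of 63 genes, chosen with earlier results of these data known. Of these, 52 had a probe set and 27 were above the dim limit by their mean. Each gene was represented by its brightest probe set, and other probe sets of some genes did not share its sign in both sets. limma called 0 of the 52 between genotypes, and 9 had an unadjusted p under 0.05 (6 higher in cKO and 3 lower), against 10.9% of all probe sets in either direction. Among the 27, 14 were higher in cKO within both sets (51.9%, against 35.8% of all 8033 genes above the limit) and 4 were lower within both (14.8%, against 27.9%). Their median difference was 0.25, 0.078 within set 1 and 0.34 within set 2, against 0.029 for all genes above the limit. Without the WT array of set 2 the median was 0.15, against 0.0068 for all genes above the limit. No gene of the 27 differed by at least 1.5-fold within both sets, against 3.04% of all genes upward and 1.64% downward.

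Enzymes that interconvert retinol and retinal differed in both directions, and none passed the test. Rdh10, the main retinol dehydrogenase of the embryo, had 7.35 and 7.11 on cKO arrays and 6.56 and 6.59 on WT arrays, a difference of 0.66 (SE 0.14, limma adjusted p = 0.33). Rdh12, which reduces retinal in the eye, differed by 0.38 within set 1 and 1.16 within set 2, but its other probe set differed by -0.15 and 1.32. Rdh11, another retinal reductase, had 7.98 and 7.96 on cKO arrays and 8.44 and 8.45 on WT arrays, a difference of -0.47 (SE 0.12, limma adjusted p = 0.342), and its other probe set was also lower in cKO (-0.99 and -0.40). Of the 9 enzymes above the limit, 6 were higher in cKO within both sets and 3 lower, by their brightest probe set. Among the 6, the other probe sets of Dhrs4 (-0.36 and 0.047) and Rdh14 (0.16 and -0.66) differed in sign between sets, as that of Rdh12 did. The shares over all genes above the limit were 35.8% and 27.9%.

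Of 6 carrier and uptake genes above the limit, 4 had higher cKO values within both sets, against 35.8% of all genes above the limit, and 0 lower ones. None of the 4 passed limma's test (adjusted p = 0.412 for Lrp1, 0.439 for Ttr, 0.612 for Dgat1 and 0.658 for Lpl, whose groups overlapped). Lrp1, a lipoprotein receptor, had 7.83 and 7.60 on cKO arrays and 7.33 and 7.0 on WT arrays. The plasma carrier gene Ttr had 7.70 and 8.43 on cKO arrays and 7.19 and 7.40 on WT arrays. The suffix of this probe set (_x_at) marks possible cross-hybridisation. Other Ttr probe sets were also higher in cKO within set 1 and set 2, by 0.34 and 1.09 without that suffix and by 0.55 and 0.90 with it. Rbp7, a cellular retinol binding protein, was below the dim limit at 5.19 and 4.93 in cKO and 4.84 and 4.53 in WT. Lrat, which stores retinol as esters, was dim as well, at 3.51 and 3.66 in cKO and 4.02 and 3.97 in WT.

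Of 6 receptor and cofactor genes above the limit, 2 were higher in cKO within both sets and 0 lower. The 1 degrading enzyme above the limit was higher, and of 5 responding genes 1 was higher and 1 lower. Over all genes above the limit the shares were 35.8% higher and 27.9% lower. Genes named here were picked because their differences shared a sign in both sets. The receptor partner gene Rxrb had 9.15 and 9.05 on cKO arrays and 8.95 and 8.5 on WT arrays, and Rxrg was dim, with differences of 0.12 and 0.47. The coactivator gene Ncoa1 had 8.58 and 8.26 on cKO arrays and 7.95 and 7.92 on WT arrays. Cyp26a1, which degrades retinoic acid and is a well-known target of it, was below the dim limit at 4.07 and 3.89 in cKO and 3.86 and 3.62 in WT. Cyp2s1, another cytochrome P450, had 8.40 and 8.09 on cKO arrays and 7.88 and 7.97 on WT arrays. Stra8, induced by retinoic acid in germ cells, was dim, with differences of 0.35 and 0.21. The transglutaminase gene Tgm2, also a known target, was dim as well by its mean of 4.97 on its brightest probe set. That probe set had 4.53 and 4.49 on cKO arrays and 5.74 and 5.12 on WT arrays. Only the WT array of set 1 reached the dim limit. The 6 probe sets of Tgm2 disagreed in part. Within set 1 and set 2 the others differed by -1.81 and -1.52, -1.63 and -1.41, and -0.94 and -0.31. The remaining ones differed by 0.017 and 0.12, and by 0.16 and -0.29.

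**Figure D5:**
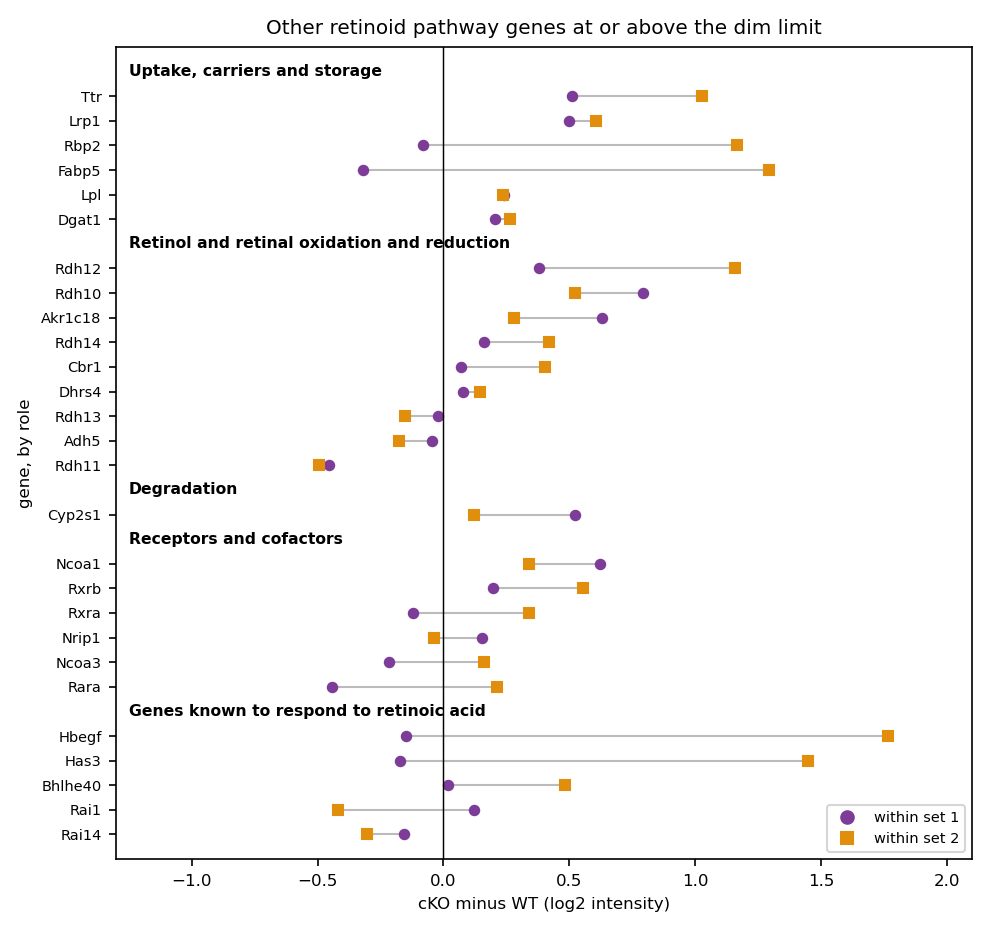
Difference cKO minus WT in log2 intensity within set 1 (circles) and set 2 (squares) for the 27 other retinoid pathway genes above the dim limit, grouped by role. The widest gaps between sets are at Hbegf, Has3 and Fabp5, with set 2 values of 1.77, 1.45 and 1.29.

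Only Adh7 and Crabp2 ranged over at least 1 on the log2 scale across the 4 arrays by their brightest probe set. Nearest to Adh7 among 8032 other genes, by Euclidean distance of the 4 centred values, were Dram1 (0.158), S100a4 (0.211) and Gpha2 (0.247). Dram1, a lysosomal membrane protein gene, had 9.35 and 9.09 on cKO arrays and 7.92 and 7.62 on WT arrays. S100a4, which encodes a calcium-binding protein, had 11.31 and 10.95 on cKO arrays and 9.84 and 9.56 on WT arrays. Nearest to Crabp2 were Id1 (0.105), Odc1 (0.14) and Avpi1 (0.187). Id1, an inhibitor of helix-loop-helix factors, had 11.36 and 11.65 on cKO arrays and 10.91 and 10.08 on WT arrays. Odc1, the first enzyme of polyamine synthesis, had 10.99 and 11.30 on cKO arrays and 10.63 and 9.73 on WT arrays. These distances rest on 4 arrays that all genes share and are a description only.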

How the data were processed

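Biotin-labelled RNA was put on Affymetrix arrays, according to the protocols in the labels. The authors deposited intensity values for 22690 probe sets on 4 arrays, made with RMA per the submitters' processing notes, with version and settings not given in the sources used here. The intensities ran from 5.29 to 25561 with medians of 82.0 to 83.3, which is a linear scale, and their log2 was used. Names of probe sets are those of GEO's platform annotation: 20380 had 1 symbol, 691 several, 1555 none and 64 were controls. Of the 20380, 20351 were found by gene identifier in the RefSeq table of GRCm38.p6 and 0 changed name. limma 3.58.1 in R 4.3.3 (lmFit, eBayes, Benjamini-Hochberg at 0.05, no dim filter) was fitted to all named probe sets, once by genotype and once by set, and was tested on simulated data. Both arrays of a set share a state label, so the set pairs them; deviations from the group means correlated with r = 0.251 over 12531 probe sets above the dim limit. Named genes were the members, Tbx1, and per role of a pathway list up to 3 genes with the largest smaller within-set difference of 1 sign. The neighbours of Adh7 and the marker and control genes were named outside this rule, after their values were seen. Likeness was sought for members ranging over at least 1. Alternatives were filters, probe set summaries, scalings, an offset, a variance trend, the block, another threshold and each array left out. Members and lists were chosen with earlier results of these data known.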

Additional observations from a re-analysis of the deposited data

Results flagged for a closer look

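Some member probe sets differed in opposite directions in the 2 sets or the 2 genotypes. With 1 array in each cell of the design, none of these differences between sets was tested. For Rarg, cKO minus WT was 0.25 in set 2 and -0.10 in set 1 at its brighter probe set, a gap of 0.35. At the dimmer one it was 0.032 in set 2 and -0.48 in set 1, a gap of 0.51. The set 2 minus set 1 difference of Rarg was 0.011 in cKO and -0.34 in WT at the brighter probe set, and 0.077 in cKO and -0.43 in WT at the dimmer one, which gives the same gaps. For Crabp2 it was 0.32 in cKO and -0.89 in WT, a gap of 1.21, and for Crabp1 0.19 in cKO and -0.55 in WT, a gap of 0.73. Aldh1a1 had -0.23 in cKO and 0.063 in WT (gap -0.30). Aldh1a3 had -0.018 in cKO and 0.057 in WT at 1 probe set (gap -0.075), and -0.14 in cKO and 0.048 in WT at another (gap -0.19). Crabp1, Aldh1a1 and Aldh1a3 had means below the dim limit.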

How the results depend on the processing

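limma's count of probe sets called between genotypes was 7. It was 0 with a filter at percentile 60, 0 with 16 added to the linear intensity, 19 with a variance trend and robust fitting, 2 with the replicate block, 11 at a threshold of 0.10, 83 with the brightest probe set per gene, the percentile 40 filter and the replicate block together, and 0 whichever array was left out. The causes were not tested. Between sets the count was 0 and became 1 in that combined fit. Adh7 passed between genotypes in the combined fit alone (limma adjusted p = 0.0207; chosen after seeing the data), and its other limma adjusted p values ran from 0.0793 to 0.944. Its difference ran from 1.41 to 1.77 at its brighter probe set and from 1.69 to 2.21 at the dimmer one with 1 array left out. No other member passed under any alternative run. Between genotypes, the brighter probe set of Rarg turned to -0.075 with the mean of its probe sets and ran from -0.096 to 0.24 with 1 array left out, Stra6 from -0.086 to 0.35 and Crabp1 from -0.76 to -0.21. Between sets, differences changed sign with 1 array left out: Adh7 from -1.11 to 0.58 and from -1.40 to 0.73, Adh1 from -0.58 to 0.10, Crabp1 from -0.60 to 0.25, Crabp2 from -1.14 to 0.57, Aldh1a1 from -0.26 to 0.088, Aldh1a3 from -0.11 to 0.15, -0.048 to 0.38 and -0.23 to 0.13, the dimmer probe set of Rarg from -0.42 to 0.061 and Dhrs3 from -0.060 to 0.125. Those fits between sets had no genotype term, and leaving out 1 array leaves a set with 1 genotype alone. A genotype difference, as at Adh7, then enters the difference between sets. These sign changes therefore do not describe the sets alone. The block changed no call of a member on the full table. Signal below the dim limit limits what can be said of Aldh1a1, Aldh1a3, Stra6 and Crabp1.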

Other observations

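Several pathway genes outside the rule for named genes, chosen after their values were seen, were low on the WT array of set 2 as Crabp2 was. Hbegf, a growth factor gene of keratinocytes, had 9.77 and 10.56 on cKO arrays and 9.92 and 8.79 on WT arrays. Has3, a hyaluronan synthase gene, had 6.98 and 6.69 on cKO arrays and 7.15 and 5.24 on WT arrays. Fabp5, the epidermal fatty acid binding protein gene, whose product also binds retinoic acid, had 12.81 and 13.29 on cKO arrays and 13.13 and 12.0 on WT arrays. Within set 1 the differences of these 3 genes were -0.15, -0.17 and -0.32, and within set 2 they were 1.77, 1.45 and 1.29.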
